A study of Mus musculus with 4 samples.

Results

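Secreted and membrane proteins enter the endoplasmic reticulum (ER) through a translocation channel, lose their signal peptide, are folded by chaperones and disulfide isomerases, and are extracted for degradation when folding fails. The unfolded protein response (UPR) adjusts the supply of this machinery through the sensors IRE1, ATF6 and PERK, and plasma cells are the classic B-lineage example of its use. Much of the natural IgM of the mouse comes from B1 cells, whereas follicular B2 cells secrete little antibody until antigen drives them to become plasma cells. The transcripts examined here are a list of 38 genes of ER translocation, folding, ER-associated degradation and the UPR, chosen by function and named one by one, out of 20599 gene symbols in the count files. The choice was made with earlier results of these data known, so shares of the list set beside those of all genes are descriptions only.

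RNA was sequenced from wild-type C57BL/6 mice, in 2 libraries of B1a cells sorted from peritoneal washes by a gate that included CD23-, IgM+ and CD5+ and 2 libraries of follicular B2 cells sorted from the spleen by one that included IgD hi, IgM lo and CD21+. The labels give an age of 4 weeks for all 4 samples, while the methods give 4 weeks for B1a and 8 weeks for B2 cells, and the controls are named as littermates of mice that lost Dnmt3a in B cells. Effects of cell type, of tissue of origin and, by the methods, of age therefore cannot be told apart in this comparison. Libraries from the Dnmt3a-deficient mice were not analysed here.

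The libraries held between 11032732 and 18588623 counts. All 38 genes were found, had more than 3 counts in every library and passed the filter on low counts, along with 12078 genes in all. B1a replicates differed more than B2 replicates, with a median absolute log2 difference over all genes of 0.54 against 0.22, and the same figures over the 38 ER genes were 0.25 and 0.20. The sorted identities were visible in the counts, since 4 of 5 B1a markers (Spn, Itgam, Zbtb32 and Bhlhe41) were called higher in B1a cells at an edgeR adjusted p under 0.05 and 2 of 3 follicular markers (Fcer2a and Cr2) were called higher in B2 cells, and the B cell genes Cd79a, Cd79b, Ms4a1 and Pax5 were above 3 counts in all 4 libraries. Markers of other cells also moved with the groups, and their part in the results was not tested. The summed CPM (counts scaled to the library total by TMM factors) of 9 macrophage markers was 218 and 268 in B1a and 70.4 and 74.2 in B2 libraries, with 8 of 9 above 3 counts in both B1a libraries and Fcgr1 at 0 in both, and Lyz2 was the only one called. The 9 plasma cell markers summed to 822 and 945 CPM in B1a and to 501 and 556 CPM in B2 cells, with Prdm1 and Mzb1 called higher in B1a, but Tnfrsf17 was at 0 in all libraries, Igj was at 0.179 and 5.40 CPM in B1a and at 3.47 and 2.56 CPM in B2 libraries, and Sdc1 at 0 and 8.27 CPM in B1a and at 13.4 and 25.2 CPM in B2 libraries. Irf4 made up the largest share of the sums, at 355 and 529.6 CPM against 262 and 274 CPM. Of these markers, Xbp1, Mzb1 and Derl3 are ER pathway genes as well. Summed T cell markers were between 68.8 and 108 CPM, mast cell markers were at 19.2 and 8.72 CPM in B1a and at most 1.47 CPM in B2 libraries, and neutrophil markers were at 0 in B1a and at most 6.64 CPM in B2 libraries. Erythroid markers summed to 78.8 and 504 CPM in the B1a and to 36.1 and 80.8 CPM in the B2 libraries. Of these 5 markers only Hba-a2 was called, at 35.6 and 96.6 CPM in B1a and 5.03 and 7.48 CPM in B2 libraries. Its log2 fold change of B1a over B2 was 3.39 (edgeR adjusted p = 0.0278), and 4 of the 5 were positive.

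Promoters of many ER genes carry the ER stress element, in which CCAAT and CCACG are parted by 9 bases and which is known as a site where ATF6 and NF-Y act. In RefSeq promoter windows of GRCm38.p6, running from 250 bases before to 50 bases after each start site, 31 of the 38 genes had a window. The element stood on either strand in 9 of these 31 (29.03%), against 16 of 9717 tested genes with a window (0.165%) and 39 of 32851 promoters (0.119%). The tested genes, here and below, include the 31, and 7 of the 16 lie outside the list. Since promoters of many ER genes are known to carry the element, its higher share here is a description only. The copies are printed because the element was more frequent in these windows than among tested genes at large, although 22 of the 31 lacked it, each written 5′ to 3′ along the element, with the fixed bases in capitals and the spacer in lower case.
Hspa5, chr2:34772025-34772043, plus strand: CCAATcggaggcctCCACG
Hsp90b1, chr10:86705638-86705656, minus strand: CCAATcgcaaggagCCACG
Hsp90b1, chr10:86705533-86705551, plus strand: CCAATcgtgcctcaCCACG
Dnajc3, chr14:118937827-118937845, plus strand: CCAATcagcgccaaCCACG
Creld2, chr15:88819520-88819538, minus strand: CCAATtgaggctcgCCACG
Calr, chr8:84847075-84847093, plus strand: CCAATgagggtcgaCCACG
Canx, chr11:50325800-50325818, minus strand: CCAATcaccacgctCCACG
Pdia6, chr12:17266491-17266509, plus strand: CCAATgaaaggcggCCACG
Ero1lb, chr13:12565682-12565700, minus strand: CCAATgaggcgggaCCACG
Syvn1, chr19:6046532-6046550, plus strand: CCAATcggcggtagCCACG

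All of these copies lay upstream of the start site, the nearest beginning 44 bases before it in Syvn1 and the farthest 212 bases before it in Hsp90b1, the only one of the 31 with 2 copies. The shorter ER stress element II, ATTGG and CCACG parted by 1 base, was found in 2 of the 31 (6.45%) and in 8 of the 9717 tested genes (0.082%). It is shown for the same reason and in the same notation.
Herpud1, chr8:94386377-94386387, plus strand: ATTGGgCCACG
Dnajb11, chr16:22857852-22857862, plus strand: ATTGGcCCACG

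Of the 6 ER genes that differed between the cell types, described next, Ero1lb alone had an exact element. Spcs3 and Atf6 had no window, and Pdia3 and Pdia4 came within 1 of the 10 fixed bases. These near matches are printed because the genes are among those called, with the changed base in lower case and positions counted from 1 at the 5′ end of the element. The change was G19A in Pdia3 and G19T in Pdia4.
Pdia3, chr2:121413873-121413891, plus strand: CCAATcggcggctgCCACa
Pdia4, chr6:47813602-47813620, plus strand: CCAATcacgggctgCCACt

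A match within 1 base, a looser search chosen after the exact matches were seen, was present in 15 of the 31 (48.39%) and in 233 of the 9717 tested genes (2.4%). Dnajb9 had no match closer than 2 changed bases. The XBP1 core TGACGTGG was in none of the 31 windows and in 1.009% of tested genes, and the C/EBP-ATF element, TGATG and AA parted by 1 base, was in Herpud1 alone (3.23%, against 2.82% of tested genes). These matches describe the letters of the windows only, and binding was not measured in these libraries.

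Genes of ER translocation, folding and quality control mostly had higher estimates in B1a cells, and few passed the test. By the quasi-likelihood test of edgeR, with p-values adjusted over all genes by the Benjamini-Hochberg method, 6 of the 38 were called higher in B1a cells (15.79%) at an adjusted p under 0.05, against 5.74% of all genes called in either direction and 4.24% called higher in B1a. They were Pdia4 and Pdia3, 2 disulfide isomerases, Ero1lb, an oxidase that recharges such isomerases, Dnajb9, a co-chaperone, Spcs3, a subunit of signal peptidase, and Atf6, a sensor of the UPR. None was called higher in B2 cells, where 1.5% of all genes were, and none had an unadjusted p under 0.05 in that direction, while 16 had one in the direction of B1a. Over all genes, 2524 (20.9%) had an unadjusted p under 0.05, 1114 of them higher in B2 cells. DESeq2 called 12 higher in B1a and none higher in B2 cells, beside 12.933% of all genes (1011 higher in B1a and 551 higher in B2). Without the first or the second B1a library, the edgeR count was 20 or 24, of which 19 and 20 were higher in B1a, beside 30.965% and 48.851% of all genes called.

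Direction was more uniform than the calls. The log2 fold change of B1a over B2 was positive for 32 of the 38 (84.21%), against 48.46% of all genes tested, and its median was 0.52, against -0.03 over all genes. The 2 B1a values stood apart from the 2 B2 values for 28 of the 38 (73.68%), 27 of them higher in B1a (71.05%). Among all genes tested 54.3% did not overlap and 25.3% were so separated with B1a higher. The 38 genes together took 0.648% and 0.623% of the counts in the B1a libraries and 0.443% and 0.476% in the B2 libraries. On the TPM scale, which divides by transcript length and total, the median of all genes itself was lower in B1a at -0.30 (log2(TPM + 1)), and there 24 of the 38 were positive with a median of 0.26. Measured from the median of all genes, the median of the 38 was higher by 0.55 on the count scale and 0.56 on the TPM scale. Fewer cells of a type and less RNA per cell cannot be told apart in such bulk samples.

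**Figure D1:**
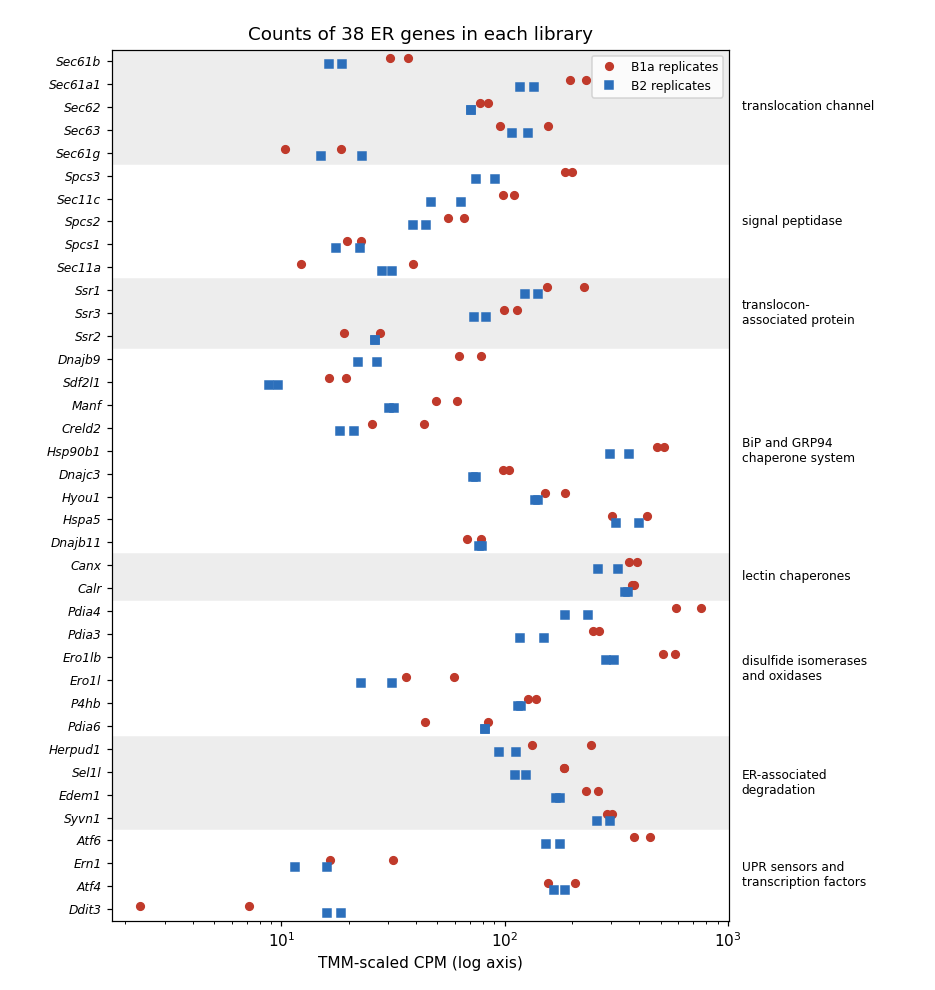
TMM-scaled CPM (log axis) of the 38 ER genes, grouped by role, with 1 point for each library (circles, B1a; squares, B2). In 27 of the 38 both B1a points lie above both B2 points, and in Ddit3 both lie below.

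**Figure D2:**
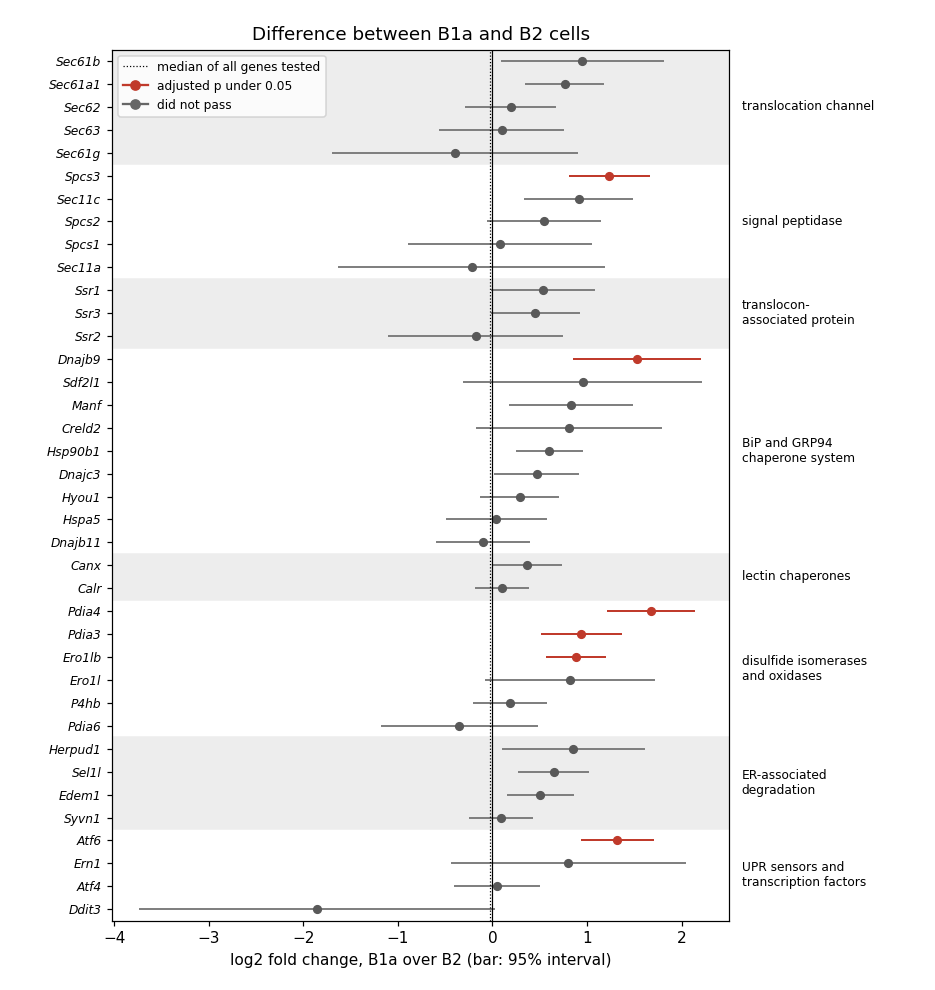
Log2 fold change of B1a over B2 (horizontal axis) for each of the 38 ER genes, with its 95% interval from edgeR as a bar. The 6 genes with an adjusted p under 0.05 (red) are all higher in B1a, 32 of 38 points lie to the right of 0, and the dotted line is the median of all genes tested (-0.03).

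The translocation channel had no call among its 5 genes and a median log2 fold change of 0.19. Sec61a1, the pore-forming subunit, was at 231.7 and 196.9 CPM in B1a and at 116.9 and 135.8 CPM in B2 libraries (log2 fold change 0.76 ± 0.17 (SE), adjusted p = 0.0586, just short of the threshold). Sec61b, a small subunit of the channel, was at 30.8 and 37.0 CPM in B1a and 16.4 and 18.6 CPM in B2 cells (0.95 ± 0.35, adjusted p = 0.195). The other small subunit, Sec61g, had one of the 5 most negative values of the list, at 10.4 and 18.5 CPM against 15.01 and 22.95 CPM, with overlapping groups (-0.39 ± 0.52, adjusted p = 0.758). Sec62 and Sec63, which assist the import of completed chains, had log2 fold changes of 0.19 and 0.10.

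Signal peptidase, which removes the signal peptide, gave 1 call among 5 genes. Spcs3, an accessory subunit required for its activity, was at 200.9 and 187.1 CPM in B1a and at 74.4 and 90.2 CPM in B2 libraries. The groups did not overlap, and the difference was 2.36-fold (log2 fold change 1.24 ± 0.17 (SE), adjusted p = 0.0147). Sec11c, one of its 2 catalytic subunits, was at 110.1 and 98.4 CPM against 47.0 and 63.8 CPM (0.91 ± 0.23, adjusted p = 0.0922). Its counterpart Sec11a went the other way by estimate, but its B1a libraries differed 3.19-fold from each other, at 12.2 and 38.9 CPM, and enclosed the B2 values of 28.1 and 31.3 CPM (-0.22 ± 0.57, adjusted p = 0.891). The remaining accessory subunits Spcs1 and Spcs2 had log2 fold changes of 0.08 and 0.55, neither called.

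The translocon-associated protein complex, which sits beside the channel and aids the insertion of some chains, had no call among 3 subunits. Ssr1 and Ssr3 were higher in both B1a than in both B2 libraries, with log2 fold changes of 0.53 and 0.45. Ssr2 was at 27.5 and 18.98 CPM in B1a and 26.4 and 26.2 CPM in B2 cells, and the groups overlapped (-0.18 ± 0.37, adjusted p = 0.858).

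Of 9 genes of the BiP and GRP94 chaperone system, 8 had positive log2 fold changes, with a median of 0.60, and Dnajb9 was called. Dnajb9 encodes ERdj4, a J-domain protein that works with BiP and restrains IRE1, and was at 62.8 and 78.4 CPM in B1a and at 21.95 and 26.87 CPM in B2 libraries. Its lowest B1a value was above its highest B2 value, and the difference was 2.89-fold (log2 fold change 1.53 ± 0.27 (SE), adjusted p = 0.0324). The call did not hold when either B2 library was left out (adjusted p = 0.224 without the first and 0.0876 without the second), while the log2 fold change stayed at 1.39 and 1.68.

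For BiP itself the estimate was near 0. Hspa5, which encodes BiP, the Hsp70 of the ER, was at 301.6 and 434.4 CPM in B1a and at 314.4 and 400.5 CPM in B2 libraries. The B1a values enclosed the B2 values, and the log2 fold change was 0.04 ± 0.21 (SE), with a 95% interval of -0.49 to 0.57 (adjusted p = 0.944). Its sign was not fixed, being -0.026 with upper-quartile scaling and -0.21 on the TPM scale. The interval includes 0.52, the median of the 38 genes.

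Hsp90b1, which encodes GRP94, the Hsp90 of the ER, was at 482.0 and 518.5 CPM in B1a and 297.8 and 360.8 CPM in B2 cells. The groups were separate, but the test fell short of the threshold (0.60 ± 0.14, adjusted p = 0.0699). Sdf2l1, a partner of J-domain proteins in the ER, was at 19.5 and 16.4 CPM against 9.63 and 8.83 CPM (0.96 ± 0.51, adjusted p = 0.367), and had the 5th largest log2 fold change of the list on low counts. Manf and Creld2, secreted or ER-resident proteins known as UPR targets, had log2 fold changes of 0.83 and 0.81, and Dnajc3 (the co-chaperone p58IPK) and Hyou1 (a large Hsp70 that serves BiP) had 0.47 and 0.29. None of these 4 was called, although both B1a values exceeded both B2 values in each. Dnajb11, the co-chaperone ERdj3, was at -0.10 with overlapping groups.

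The lectin chaperones, which bind sugars on nascent glycoproteins, gave no call. Calr (calreticulin) was at 381.1 and 373.4 CPM in B1a and at 345.8 and 357.9 CPM in B2 libraries, with a log2 fold change of 0.10 ± 0.11 (SE) and a 95% interval of -0.18 to 0.38 (adjusted p = 0.698). Canx (calnexin) was at 360.6 and 391.7 CPM against 262.7 and 320.8 CPM (0.37 ± 0.15, adjusted p = 0.228). Neither gene's groups overlapped, and neither passed the test. The sign for Calr turned to -0.14 on the TPM scale.

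The disulfide isomerases and oxidases, which form and rearrange disulfide bonds such as those that join antibody chains, held 3 of the 6 calls and had the highest median of the 8 roles, at 0.85. Pdia4, the isomerase ERp72, was at 760.0 and 586.4 CPM in B1a and at 186.0 and 235.4 CPM in B2 libraries. Its lowest B1a value exceeded its highest B2 value by a wide margin, and it had the largest log2 fold change of the 38 genes, 1.68 ± 0.19 (SE), or 3.19-fold (adjusted p = 0.00742). It was the only one of the 38 called in all 10 other analyses of the 4 libraries, with adjusted p-values from 1.37e-17 to 0.0428. Per transcript length, its level of 728.7 and 548.4 TPM ranked first of the 38 in B1a by mean, whereas its 209.8 and 261.3 TPM ranked 6th in B2. Calr, at 502.1 and 511.6 TPM, ranked first in B2 and second in B1a, at 470.5 and 449.7 TPM.

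Pdia3, the isomerase ERp57 that works with the lectin chaperones, was at 264.4 and 248.2 CPM in B1a and at 117.3 and 149.6 CPM in B2 libraries. The groups did not overlap, and the difference was 1.92-fold (log2 fold change 0.94 ± 0.17 (SE), adjusted p = 0.0331), although the call was lost without the first B2 library (log2 fold change 0.78, adjusted p = 0.194). Ero1lb, the oxidase ERO1-beta, was at 577.7 and 514.3 CPM against 283.1 and 307.4 CPM, 1.85-fold higher without overlap (0.89 ± 0.12, adjusted p = 0.0155). Its paralog Ero1l, ERO1-alpha, was lower in count and more scattered, at 36.3 and 59.4 CPM against 31.4 and 22.8 CPM (0.82 ± 0.36, adjusted p = 0.274).

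P4hb and Pdia6, isomerases of the same family, were not called. P4hb, the founding protein disulfide isomerase, had a log2 fold change of 0.18 (adjusted p = 0.587). Pdia6, the isomerase P5, was at 43.9 and 84.3 CPM in B1a and at 81.5 and 81.8 CPM in B2 libraries. Its B1a libraries enclosed the B2 values and the estimate was negative (-0.35 ± 0.33, adjusted p = 0.638). The differences among isomerases were not tested against each other.

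ER-associated degradation, which returns misfolded chains to the cytosol, had positive log2 fold changes in all 4 genes, a median of 0.58 and no call. Sel1l, the adaptor of the HRD1 ubiquitin ligase, was at 183.9 and 185.3 CPM in B1a and 111.4 and 124.2 CPM in B2 libraries (0.65 ± 0.15, adjusted p = 0.0694). Syvn1, the ligase HRD1 itself, was at 302.5 and 288.4 CPM against 297.8 and 258.4 CPM, and the groups overlapped (0.09 ± 0.13, adjusted p = 0.793). Herpud1, a membrane component of the ligase complex, and Edem1, which guides glycoproteins to it, did not overlap between groups and had log2 fold changes of 0.86 and 0.51 (adjusted p = 0.186 and 0.111).

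The 4 UPR sensors and transcription factors held 1 call. Atf6, a membrane-bound factor that is cut in the Golgi to reach the nucleus, was at 449.3 and 378.8 CPM in B1a and at 153.9 and 177.4 CPM in B2 libraries. Both B1a values lay above both B2 values, and the difference was 2.50-fold (log2 fold change 1.32 ± 0.15 (SE), adjusted p = 0.00833). Ern1, the kinase and nuclease IRE1, was at 31.6 and 16.6 CPM against 16.1 and 11.6 CPM, so that the lower B1a value lay just above the higher B2 value (0.80 ± 0.50, adjusted p = 0.446). Atf4, whose protein is made when PERK or related kinases slow translation, was at 207.1 and 157.2 CPM against 185.9 and 167.1 CPM, and the B1a values enclosed those of B2 (0.05 ± 0.18, adjusted p = 0.928).

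Ddit3 was the only one of the 38 with both B1a values below both B2 values. It encodes CHOP, a factor induced by prolonged ER stress, and was at 2.33 and 7.19 CPM in B1a and at 16.0 and 18.6 CPM in B2 libraries, from 26.0 to 355.0 counts. The log2 fold change was -1.86 ± 0.76 (SE), the largest of the list in size, with a 95% interval from -3.72 to 0.01 (adjusted p = 0.242), and the B1a libraries differed 3.09-fold from each other. It was called in none of the 10 other analyses of all 4 libraries.

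Among genes not called, Sec61a1, Sel1l and Hsp90b1 passed the threshold in 6 of the 10 other analyses of all 4 libraries, Herpud1 and Sec11c in 4 and Edem1 in 1. The calls of Spcs3, Pdia4, Ero1lb and Atf6 held when any single library was left out. With limma on log2(TPM + 1), 3 of the 6 were called (Atf6, Dnajb9 and Pdia4) beside 4.15% of all genes, and with a pseudocount of 0.1 only Pdia4 was, beside 2.98%. Positions of some members overlap other genes (Pdia3 with Catsper2, Hspa5 with Rabepk, Ddit3 with Mbd6 and Mars1, Atf6 with Gm29733, Pdia6 with Atp6v1c2), and whether reads were counted by strand is not given in the sources used here, so reads of the overlaps cannot be told apart.

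Carriers of an exact ER stress element had a lower median than the rest of the list, a description with no test. The median log2 fold change was 0.37 in the 9 carriers and 0.52 in the 22 others with a window. Ero1lb was the only carrier called, and the lowest values among carriers were those of Pdia6 (-0.35), Hspa5 (0.04), Syvn1 (0.09) and Calr (0.10). The 2 genes with ER stress element II had values of 0.86 (Herpud1) and -0.10 (Dnajb11).

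**Figure D3:**
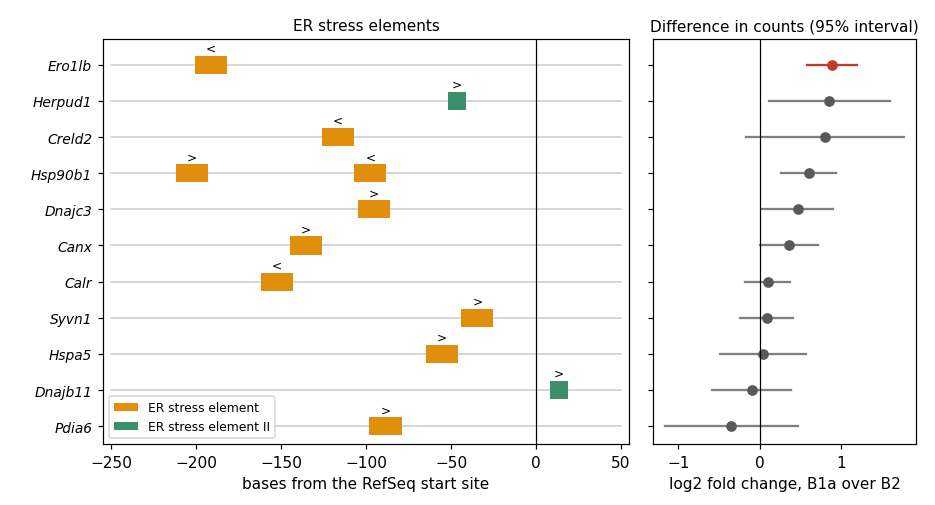
Left, position of exact ER stress elements (orange) and ER stress element II (green) relative to the RefSeq start site in bases, with arrows for the element's strand relative to the gene. Right, log2 fold change of B1a over B2 with its 95% interval for the same genes, of which Ero1lb alone passed the test (red) and 9 of 11 were positive.

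Other genes of the pathway were described by a list of 103, of which 99 were tested. They contained 6 genes called higher in B1a cells, none called higher in B2, and 75 with a positive log2 fold change (75.76%, against 48.46% of all genes), with a median of 0.25. The calls were not far from the 4.24% of all genes called higher in B1a cells. The 6 were Atf3, Ppp1r15a, Creb3l2, Mzb1, Ppib and Stt3b. The list of cytosolic chaperones, a contrast outside the ER, had no call among 22 genes, 10 positive values and a median of -0.03. That median equals that of all genes tested to 2 decimals. Hspd1 and Hspe1, which are on this list, encode chaperones of mitochondria. Some of the 22, such as Hspa1b (16.4 and 144.5 CPM in the B2 libraries), were highest in B2 replicate 2, and others, such as Hsp90ab1, were not. The part of that library in the median was not tested.

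Among 15 tested sensors and targets of the UPR outside the 38 genes, 3 were called, 10 had a positive log2 fold change and the median was 0.20. Atf3, a stress-induced transcription factor, was at 392.0 and 309.0 CPM in B1a and at 1.04 and 1.10 CPM in B2 libraries (log2 fold change 8.34 ± 0.25 (SE), adjusted p = 0.0003). Ppp1r15a (GADD34), which restores translation after stress, was at 298.2 and 224.0 CPM against 54.9 and 70.2 CPM (2.06 ± 0.22, adjusted p = 0.00618). Creb3l2, a membrane-bound factor related in design to ATF6, was at 80.6 and 76.7 CPM against 9.80 and 7.84 CPM (3.16 ± 0.28, adjusted p = 0.00419). In all 3 both B1a values were above both B2 values. Atf3 and Ppp1r15a belong to the branch of Atf4 and Ddit3, and the differences between their fold changes were not tested. Trib3, Chac1 and Asns, further targets on the list, were low in both cell types. Trib3 was at 0 CPM in both B1a libraries and at 0.694 and 0.470 CPM in B2 libraries. Chac1 was at 0 and 1.17 CPM against 0.173 and 0 CPM, and both genes failed the filter on low counts. Asns was at 0 and 3.42 CPM against 0.0867 and 1.52 CPM (1.07 ± 2.38, adjusted p = 0.8685).

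Xbp1, the transcript that IRE1 splices, was at 60.2 and 58.7 CPM in B1a and at 59.3 and 78.6 CPM in B2 libraries, with overlapping groups (-0.21 ± 0.24, adjusted p = 0.692). Gene counts do not separate its spliced and unspliced forms. Eif2ak3, the sensor PERK, was at 268.1 and 319.8 CPM against 180.0 and 182.4 CPM and missed the threshold narrowly (0.70 ± 0.14, adjusted p = 0.0503).

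The other lists each had a positive median. Of 18 tested folding factors, Mzb1, a cofactor of GRP94 in IgM assembly, was at 218.6 and 221.2 CPM in B1a and at 60.4 and 70.2 CPM in B2 cells (1.75 ± 0.16, adjusted p = 0.00432), and Ppib, a prolyl isomerase of the ER, was at 148.9 and 163.9 CPM against 80.3 and 73.0 CPM (1.03 ± 0.17, adjusted p = 0.0247). Of 15 genes of N-glycosylation, Stt3b, a catalytic subunit of oligosaccharyltransferase, was called, at 596.6 and 851.8 CPM against 309.2 and 392.8 CPM (1.04 ± 0.21, adjusted p = 0.0477). No gene was called among 15 of translocation and targeting, 16 of ER-associated degradation and 20 of transport from the ER to the Golgi, whose medians were 0.26, 0.11 and 0.19.

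**Figure D4:**
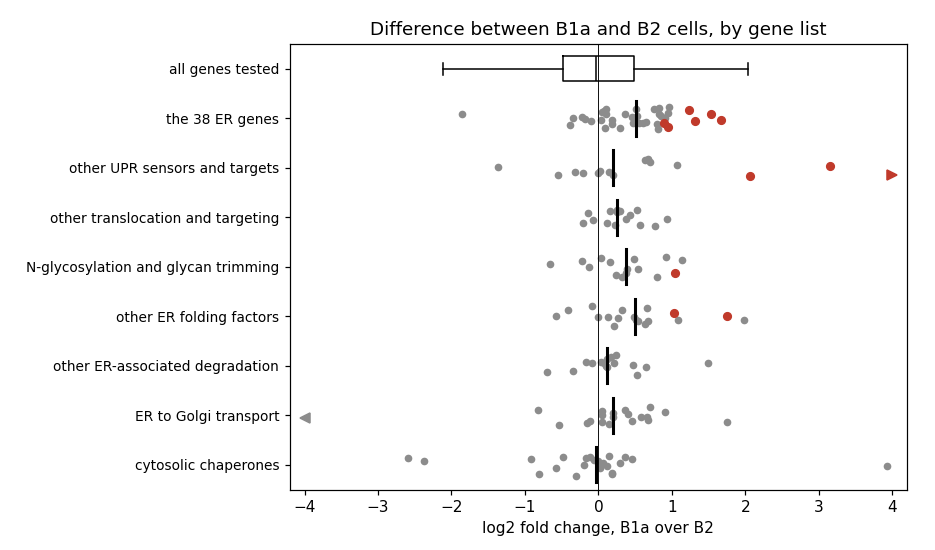
Log2 fold change of B1a over B2 for the 38 ER genes, 6 lists of other genes of the pathway and cytosolic chaperones, with 1 point for each gene, called genes in red, list medians as black bars, and a box for all genes tested (quartiles, whiskers from the 5th to the 95th percentile). Points beyond 4 are drawn as triangles at the edge (Atf3 at 8.34 and, uncalled, Kdelr3 at -5.25). The bar of the 38 ER genes stands at 0.52. That of the list of cytosolic chaperones, which includes the mitochondrial Hspd1 and Hspe1, stands at -0.03.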

How the data were processed

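The authors sorted cells by flow cytometry, sequenced RNA libraries and aligned reads to mm10 with RSEM and RefSeq genes. RSEM was version 1.2.29 in the submitters' processing notes, and the methods give another version. The methods name a stranded library kit and the paper states that polyadenylated RNA was enriched, while the labels name a kit that removes ribosomal RNA. Each deposited file held, per gene entry, expected counts, TPM scaled to the same total in each library, and a posterior standard deviation of the count, a deposited signal that was at most 0.812% of the count for the 38 genes. Members and lists were chosen with earlier results of these data known.

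Entries of 1 symbol were added up and their expected counts rounded. After edgeR's filterByExpr and TMM scaling, the quasi-likelihood F test of edgeR 4.0.16 (R 4.3.3) was run with cell type as the only term, Benjamini-Hochberg adjustment over 12078 genes and a threshold of 0.05. Standard errors are the size of the log2 fold change divided by the root of F. CPM values are TMM-scaled. The biological coefficient of variation was 0.507. All p-values measure the spread between these samples only. Depth was 11032732 to 18588623 counts, where a floor of 3 counts equals 0.161 to 0.272 CPM and covers counting error only. The test was checked on simulated data. All 38 genes were accounted for. Full values were given for those called, the 5 largest log2 fold changes in each direction, the UPR factors and Hspa5, Hsp90b1, Calr and Canx. Of the lists of other pathway genes, full values were given for those called, Xbp1 and Eif2ak3. Others were named after their values were seen.

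Alternatives were DESeq2 1.42.0, limma 3.58.1 (voom, with and without weights, and log2(TPM + 1) or log2(TPM + 0.1), where the mean TPM reached 1), upper-quartile factors, other filters, unsummed entries, a fold minimum, a replicate block and leaving out each library. Motifs were searched on both strands of RefSeq promoter windows (GRCm38.p6), matched by symbol or a unique synonym. Sec61a1, Sec11c, Spcs3, Ssr2, Hyou1, Manf and Atf6 had none. The comparison tool named in the methods was not run here.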

Additional observations from a re-analysis of the deposited data

How the results depend on the processing

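Of the 38 ER genes, 6 were called, all higher in B1a cells, with the main settings. DESeq2 called 12, limma-voom with weights by cell type 11, no filter beyond 1 count 11, the replicate block 11, log2(TPM + 1) in limma 3 and log2(TPM + 0.1) 1, all higher in B1a. Over all genes, 693 were called, against 1562, 1415, 1141, 1481, 499 and 359 under these settings. Called genes split into 512 higher in B1a and 181 higher in B2 with the main settings, but into 266 and 233 on log2(TPM + 1) and 196 and 163 on log2(TPM + 0.1). The methods state no pairing of samples by replicate number. Deviations of same-numbered libraries correlated at -0.035 across genes, but with 2 libraries of each cell type this cannot show whether they were paired.

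Leaving out 1 library gave 4 to 24 called ER genes, 4 to 20 higher in B1a and 0 to 4 higher in B2, and 539 to 6143 called genes overall. The high ends came without B1a replicate 2 and the low ends without B2 replicate 1. Without B1a replicate 1, 20 ER genes and 3953 genes were called. A lone sample was assumed to vary like the other group. Called higher in B2 were Ddit3 without either B1a library, and Sec61g, Sec11a and Pdia6 without B1a replicate 2.

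Among uncalled genes, the log2 fold change turned in sign with upper-quartile factors for Hspa5 (-0.026) and Atf4 (-0.025). On log2(TPM + 1) and log2(TPM + 0.1) it was -0.050 and -0.051 for Sec62, -0.18 and -0.18 for Sec63, -0.15 and -0.15 for Spcs1, -0.21 and -0.21 for Hspa5, -0.14 and -0.14 for Calr, -0.058 and -0.058 for P4hb, -0.15 and -0.15 for Syvn1, and -0.18 and -0.19 for Atf4. Leaving out 1 library gave ranges of -0.30 to 0.41 for Sec63, -1.29 to 0.39 for Sec11a, -0.083 to 0.26 for Spcs1, -0.47 to 0.065 for Ssr2, -0.25 to 0.28 for Hspa5, -0.90 to 0.043 for Pdia6, -0.018 to 0.19 for Syvn1 and -0.17 to 0.23 for Atf4. The cause of these changes was not tested. Protein features were planned but not run.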

Other observations

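Some of the 22 genes listed as cytosolic chaperones, named here after their values were seen, were highest in 1 B2 library. Hspa1b, an inducible Hsp70, was at 17.9 and 8.72 CPM in B1a and at 16.4 and 144.5 CPM in B2 libraries, and Hspa1a, Hsph1, Dnaja1 and Dnajb1 were likewise highest in B2 replicate 2. Others were not, such as Hsp90ab1, the constitutive Hsp90 of the cytosol, highest in B1a replicate 2 (1462 CPM against 1273 CPM in B2 replicate 2). None of the 22 was called by edgeR's quasi-likelihood test.

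Exact ER stress elements stood in the windows of 7 tested genes outside the 38. Acacb, an acetyl-CoA carboxylase, was called higher in B1a cells (21.8 against 0.462 CPM on average, edgeR adjusted p = 0.0456), while Derl3, a derlin of ER-associated degradation, had a log2 fold change of 1.496 (adjusted p = 0.269). Alg12, a mannosyltransferase of the ER, was at -0.27 and Hnrnpa3, an RNA-binding protein, at -0.50, neither called. Adcy3, Pan2 and Xlr3b were also not called. The 6 further genes with ER stress element II (Krtcap2, Lgalsl, Lrif1, Nucb1, Rbm39 and Rcl1) included none that was called, with log2 fold changes from -0.87 for Lrif1 to 1.15 for Lgalsl.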
